A study of Rattus norvegicus with 24 samples.

Results

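The genes described here are the ubiquitin conjugating enzymes (E2s) and the deubiquitinases of rat male germ cells. They were chosen by symbol alone: a probe set had to carry exactly 1 gene symbol, and that symbol had to begin with Ube2, with Usp or Uchl and a digit, or with Otud. This gave 148 probe sets for 82 of the 14217 genes with 1 symbol, 29 conjugating enzymes and 53 deubiquitinases, and each gene was read from the probe set with the highest mean signal over all arrays. Another 8 probe sets that carry several symbols of the families were left out, and Ube2d3, Ube2e1 and Ube2v1 were read only by those. Usp6nl, Usp39 and Usp54 are counted with the deubiquitinases by symbol, and no such activity was assumed for them. RNA had been hybridised to 24 Affymetrix arrays, which are 1-colour expression arrays, in 4 groups of 6: round spermatids of aged rats, round spermatids of young rats, pachytene spermatocytes of aged rats and pachytene spermatocytes of young rats. The rats were of the Brown Norway strain, 18 months old where called aged and 4 months old where called young, and the labels name no treatment or transgene. Going by rat numbers, both fractions came from each of 12 rats. Per the labels the fractions were enriched on a density gradient and were not pure.

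Ubiquitin is a small protein that cells attach to other proteins. An E1 enzyme activates it, an E2 conjugating enzyme carries it, and an E3 ligase chooses the substrate; deubiquitinases cut it off again or trim its chains. In the testis the system is known for ubiquitin on histones at the sex chromosomes in meiosis, for the exchange of histones in spermatids, and for the clearing of cytoplasm and organelles as sperm form. Pachytene spermatocytes hold paired homologous chromosomes and repair the breaks of recombination; after both meiotic divisions they yield haploid round spermatids.

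The signals are log2 values, so a difference of 1 is a 2-fold change. The fractions matched their labels, since 7 of 8 markers of pachytene cells were lower in round spermatids and 9 of 9 round spermatid and 12 of 12 late spermatid markers were higher. Sertoli cell markers were lower in round spermatid than in pachytene fractions for 10 of 12 genes, with a median difference of -1.52 and the lowest at -3.11. Macrophage markers were higher in round spermatid fractions for 6 of 6 genes, with 2.09 as the highest. Spermatogonia markers were higher for 4 of 7 and lower for 1, and peritubular markers higher for 4 of 6 and lower for 1. Leydig cell markers were higher for 1 of 7 and lower for 4. The part of all these cells in the members' differences between cell types was not tested. Sertoli markers were lower in aged than in young rats for 10 of 12 genes in pachytene fractions and for 7 of 12 in round spermatid fractions. The arrays of young rats 1, 10 and 11 stood apart from the other young pachytene arrays, with scores of -86.3, -47.1 and -44.0 on the first principal component, against -7.38 to 3.78 for young rats 2, 3 and 13. These 3 rats also had the highest mean levels of spermatid markers among young pachytene fractions, so counts of age changes, and those of most members named, are given with and without them. In round spermatids the array of young rat 10 lay farthest out, at -40.7. Dim probe sets were treated differently in the 2 sets of arrays: a control for an absent transcript read 6.89 and 6.78 in aged and young round spermatids, against 4.23 and 4.44 in aged and young pachytene spermatocytes. An offset on the linear pachytene values was fitted on 45 control probe sets before the cell types were compared, and for dim members cell type and array background cannot be told apart.

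The first comparison asked how the members differed between the cell types, with 12 round spermatid arrays against 12 pachytene arrays. Of the 29 conjugating enzymes 14 were higher in round spermatids and 11 were lower, and among the 53 deubiquitinases the numbers were 27 higher and 21 lower. The background is high: 88.3% of all genes passed the same threshold (an adjusted p under 0.05), 49.2% as higher and 39.1% as lower in round spermatids. The share called was 86.2% in the conjugating enzymes and 90.6% in the deubiquitinases, near the background in both. Median differences were 0.08 for the conjugating enzymes, 0.07 for the deubiquitinases and 0.05 for all genes. When arrays were instead centred on hybridization controls, 19 deubiquitinases were higher and 24 lower, and the balance of all genes turned as well, to 32.3% higher and 48.4% lower. Because each fraction is a mass of cells, fewer cells of a type and less RNA per cell cannot be told apart in any of these results.

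**Figure D1:**
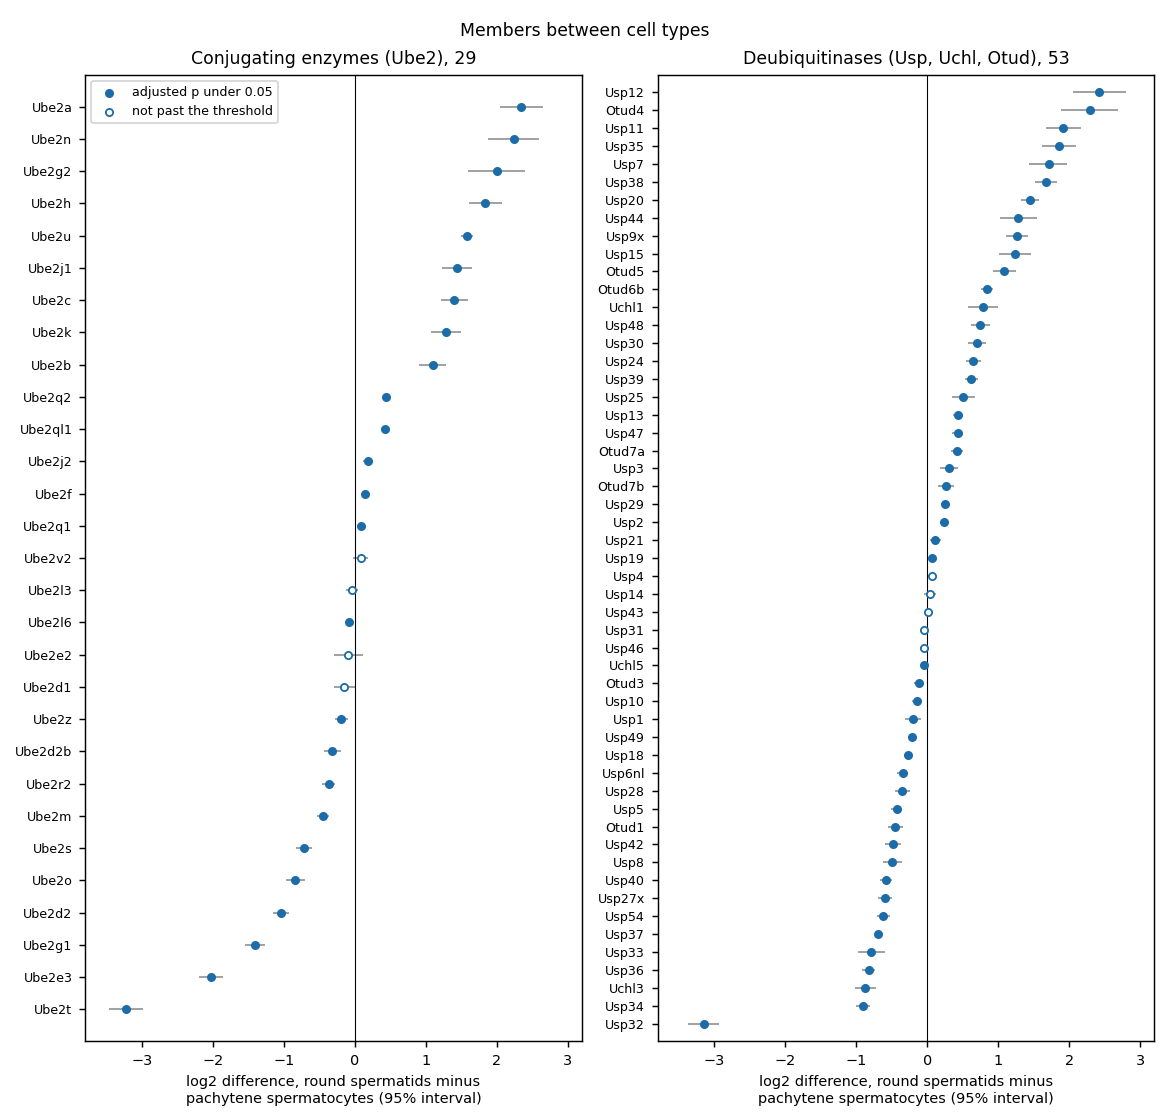
Log2 difference of each of the 82 members between cell types (round spermatids minus pachytene spermatocytes, points) with its 95% interval (lines), conjugating enzymes left and deubiquitinases right. Filled points passed an adjusted p of 0.05. The extremes are Ube2a at 2.34 and Ube2t at -3.22 among conjugating enzymes, and Usp12 at 2.42 and Usp32 at -3.15 among deubiquitinases.

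Conjugating enzymes that act on histones and in DNA repair held both extremes. Ube2a (1388863_at, X chromosome), a homologue of yeast Rad6 that puts ubiquitin on histones, read 11.78, 12.11 and 12.28 in round spermatids and 9.01, 9.52 and 11.11 in pachytene spermatocytes (lowest, median and highest of 12 arrays, as in the sentences that follow). No pachytene array reached the lowest round spermatid array. The difference was 2.34 ± 0.15 (SE), or 5.07-fold, with an adjusted p of 5.31e-13. The second Rad6 homologue, Ube2b (1386923_at, chromosome 10), whose loss makes male mice sterile, read 12.72, 12.93 and 13.25 in round spermatids against 11.39, 11.75 and 12.84 in pachytene spermatocytes. Its groups overlapped by the array of young rat 1, and the difference was 1.1 ± 0.10. Another probe set of Ube2b, 1375642_at, went the other way (-1.30 ± 0.05). Ube2n (1369617_at, chromosome 7), the enzyme that builds chains used for signalling rather than for degradation, read 13.09, 13.32 and 13.81 against 10.97 as the pachytene median and 12.94 as the pachytene highest. Its groups did not overlap, and it was 4.71-fold higher in round spermatids (2.24 ± 0.17). Ube2v2, a partner of Ube2n that lacks the catalytic cysteine, differed by 0.08 (adjusted p = 0.119).

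Ube2t went the other way. Ube2t (1390481_a_at, chromosome 13), which puts ubiquitin on Fancd2 in the Fanconi anaemia pathway of crosslink repair, read 8.40, 9.03 and 9.39 in round spermatids and 11.14, 12.38 and 12.51 in pachytene spermatocytes. All round spermatid arrays lay far below all pachytene arrays. It was 9.33-fold lower in round spermatids (-3.22 ± 0.12, adjusted p = 2.32e-17), the largest difference of any conjugating enzyme.

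Among the 5 conjugating enzymes known from degradation of proteins at the endoplasmic reticulum, 4 were higher in round spermatids and 1 was lower. Ube2g2 (1380157_at, chromosome 20) read 12.16, 12.52 and 13.32 in round spermatids and 9.76, 10.29 and 12.50 in pachytene spermatocytes, a difference of 2.00 ± 0.19. Its groups overlapped, again through young rat 1. Ube2j1 (1.44 ± 0.10), a membrane-anchored enzyme, and Ube2k (1.29 ± 0.10), which builds chains on its own, were also higher, with no overlap between groups for either. Another called probe set of Ube2k was lower. Ube2j2 was higher by 0.19 ± 0.03. Ube2g1 (1398864_at, chromosome 10), the paralog of Ube2g2, was the exception (-1.41 ± 0.07). It read 9.25, 9.38 and 9.88 in round spermatids and 10.39, 10.87 and 11.28 in pachytene spermatocytes. The other probe set of Ube2g1, 1370501_at, differed by much less (-0.13 ± 0.06, adjusted p = 0.0487).

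Both enzymes of the anaphase-promoting complex, the ligase that ends metaphase, passed the threshold with opposite signs. Ube2c, which starts the chains, read 11.96, 12.15 and 12.32 in round spermatids and 10.36, 10.70 and 11.42 in pachytene spermatocytes (1.40 ± 0.09). Ube2s, which extends them, was lower by 0.72 on the log2 scale (-0.72 ± 0.05), at 13.22 as the round spermatid median and 13.96 as the pachytene median. In neither gene did the groups overlap.

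Of the 5 members listed for the D and E families and Ube2l3, 2 passed the threshold and both were lower in round spermatids. These enzymes serve many different ligases. Ube2d2b has a D family symbol but was not in that list. Its mean was 13.72 in round spermatids and 14.04 in pachytene spermatocytes, with overlap of its groups. Ube2e3 (1389534_at, chromosome 3) read 9.53, 9.83 and 10.49 in round spermatids and 11.50, 11.93 and 12.45 in pachytene spermatocytes, a difference of -2.03 ± 0.08. For Ube2d2 the difference was -1.04 ± 0.05, and the 2 other probe sets of the gene were lower as well (-1.11 and -0.51). Both genes had every round spermatid array below every pachytene array. Ube2d1 was dim on all arrays and did not pass (-0.15, adjusted p = 0.07), nor did Ube2e2 (-0.09) or Ube2l3 (-0.04). The second, dimmer probe set of Ube2l3 was lower in round spermatids by 1.53 on the log2 scale (-1.53 ± 0.04).

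Of the 3 enzymes for ubiquitin-like proteins, the Nedd8 enzyme Ube2f was higher by 0.15 ± 0.03 in round spermatids and the Nedd8 enzyme Ube2m lower, at -0.45. Among the remaining conjugating enzymes, Ube2h, which works with the CTLH ligase, read 10.38, 10.71 and 11 against 8.49, 8.64 and 9.88 (1.84 ± 0.11). Ube2u (1386132_at, chromosome 5) had the smallest p-value of all 82 members, with 11.39, 11.56 and 11.68 in round spermatids and 9.72, 9.98 and 10.19 in pachytene spermatocytes (1.58 ± 0.04). The groups of Ube2u are narrow and far apart; those of Ube2h did not overlap, with wide pachytene values. Ube2o, a large enzyme that acts as its own ligase, was lower in round spermatids (-0.84 ± 0.07), with some overlap of its groups.

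Among deubiquitinases the largest rise in round spermatids was that of Usp12 (1385035_at, chromosome 12), an enzyme that needs the partner Wdr48 to be active. It read 12.70, 13.06 and 13.67 in round spermatids and 9.94, 10.40 and 12.46 in pachytene spermatocytes, a difference of 2.42 ± 0.18 (5.37-fold, adjusted p = 1.25e-11). Otud4 (1397207_at, chromosome 19), an OTU domain protease tied to repair of alkylated DNA, read 12.36, 12.70 and 13.05 against 9.51, 10.15 and 12.39 (2.29 ± 0.19). The groups of Usp12 did not touch, while those of Otud4 overlapped by 1 pachytene array, that of young rat 1. Of all 7 OTU domain members 5 were higher and 2 lower.

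Of the 11 deubiquitinases known from histones and DNA damage, 7 were higher in round spermatids and 4 lower. Usp7 (1394393_at, chromosome 10), which stabilises the ligase Mdm2 and acts on several chromatin proteins, read 13.19, 13.38 and 13.50 in round spermatids and 10.92, 11.50 and 13.01 in pachytene spermatocytes (1.71 ± 0.13). Usp11 (1376171_at, X chromosome), which acts in repair of DNA breaks, read 11.11, 11.23 and 11.40 against 8.86, 9.13 and 10.56 (1.91 ± 0.12). Neither gene's groups overlapped. Usp44, which removes ubiquitin from histone H2B and sustains the spindle checkpoint, was higher by 1.28 ± 0.13, and Usp48 by 0.75 ± 0.07. Another called probe set of Usp48 was lower. Usp1, which cuts ubiquitin from Fancd2 and so opposes Ube2t, was lower by only 0.20 ± 0.06 on the log2 scale.

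Usp32 (1373962_at, chromosome 10), a membrane-bound enzyme of endosomes, was the deubiquitinase with the largest fall. It read 7.82, 8.71 and 9.63 in round spermatids and 11, 11.95 and 12.06 in pachytene spermatocytes. The groups were separate, and the difference was -3.15 ± 0.11, or 8.90-fold lower in round spermatids. Of the 6 endosomal and receptor members, Usp32 included, 3 were higher and 3 lower in round spermatids: Usp9x (1.27 ± 0.07) and Usp20 (1.45 ± 0.06, with -0.23 and -0.78 for its other 2 probe sets) were higher, and Usp8 (-0.49 ± 0.07) and Usp33 (-0.79 ± 0.10) lower. Usp8 has a known place in forming the acrosome, the sperm's enzyme cap, in mice. Usp35 (1.85 ± 0.11) and Usp38 (1.67 ± 0.08) were also higher, without overlap. Usp34 (-0.90 ± 0.05), which acts on axin in Wnt signalling, and the nucleolar Usp36 (-0.82 ± 0.05) were lower, without overlap. These are the brightest probe sets, and Usp8, Usp9x, Usp20, Usp34 and Usp38 each had another called probe set of the opposite sign.

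The small C-terminal hydrolases differed in sign. Uchl1, which in the testis is known as a protein of spermatogonia, read 9.57, 9.81 and 10.54 in round spermatids and 8.87, 8.95 and 10.02 in pachytene spermatocytes (0.79 ± 0.10). Uchl3 read 12.04, 12.61 and 12.80 against 12.84, 13.51 and 13.58 (-0.87 ± 0.07). The groups of Uchl1 overlapped and those of Uchl3 did not. Both deubiquitinases that sit on the proteasome lay close together in the cell types: Usp14 differed by 0.04 (95% interval -0.05 to 0.12, adjusted p = 0.407), and Uchl5 by -0.05 (-0.09 to -0.01, adjusted p = 0.015), with -0.04 and an adjusted p of 0.0665 without the 3 young rats. Both signs turned when arrays were centred on medians or on hybridization controls. Usp2, whose loss lowers fertility in male mice, was higher by 0.24 ± 0.02, although another called probe set of the gene was lower.

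Promoters of 66 members are in the RefSeq table for rat assembly GRCr8, and 16 members are named only. Shown are the members with the largest difference between cell types in each class and direction among those in the table, and Ube2b for its role in the testis. Each line is the 250 bases before the 1 start that the table gives for a gene, which for Ube2a, Ube2b and Usp32 lies inside the gene's full annotated span, 5′ to 3′ on the gene's strand, with matches to a cyclic AMP response element (TGACGTCA), a CCAAT box (CCAAT) or a GC box (GGGCGG) on either strand in capitals; no motif contains another. Ube2a lies at chrX:120979834-120980083 on the plus strand, Otud4 at chr19:45184137-45184386 on the minus strand, Ube2b at chr10:36763944-36764193 on the minus strand, Ube2t at chr13:48954916-48955165 on the plus strand and Usp32 at chr10:70502040-70502289 on the minus strand.
Ube2a: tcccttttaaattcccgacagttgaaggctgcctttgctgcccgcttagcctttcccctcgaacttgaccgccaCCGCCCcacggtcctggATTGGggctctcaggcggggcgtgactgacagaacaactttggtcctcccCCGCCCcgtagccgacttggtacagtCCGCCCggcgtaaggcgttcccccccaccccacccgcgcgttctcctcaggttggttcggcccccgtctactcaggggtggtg
Otud4: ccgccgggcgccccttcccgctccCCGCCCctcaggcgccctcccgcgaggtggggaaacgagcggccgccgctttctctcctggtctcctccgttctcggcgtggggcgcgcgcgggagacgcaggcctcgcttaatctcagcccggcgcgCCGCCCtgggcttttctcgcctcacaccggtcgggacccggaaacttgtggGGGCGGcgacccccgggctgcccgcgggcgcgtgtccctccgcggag
Ube2b: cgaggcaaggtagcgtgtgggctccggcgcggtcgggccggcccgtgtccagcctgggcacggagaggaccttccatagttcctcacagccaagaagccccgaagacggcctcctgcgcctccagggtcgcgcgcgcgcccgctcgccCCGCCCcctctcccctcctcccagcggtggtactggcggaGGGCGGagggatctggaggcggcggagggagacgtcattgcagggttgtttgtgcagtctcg
Ube2t: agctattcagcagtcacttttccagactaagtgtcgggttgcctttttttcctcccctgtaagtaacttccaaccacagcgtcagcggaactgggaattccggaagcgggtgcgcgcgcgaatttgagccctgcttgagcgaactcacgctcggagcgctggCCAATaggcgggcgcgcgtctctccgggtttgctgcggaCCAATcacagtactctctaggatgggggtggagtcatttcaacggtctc
Usp32: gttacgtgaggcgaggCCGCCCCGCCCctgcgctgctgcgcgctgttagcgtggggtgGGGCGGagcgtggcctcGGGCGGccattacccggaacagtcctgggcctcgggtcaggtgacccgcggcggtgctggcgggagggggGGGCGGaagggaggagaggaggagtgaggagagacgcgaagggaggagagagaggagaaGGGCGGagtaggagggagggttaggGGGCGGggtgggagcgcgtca

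All 5 sequences are rich in CG pairs, with 20 in Ube2a and Ube2t, 25 in Usp32, 27 in Ube2b and 38 in Otud4. Ube2t holds 2 CCAAT boxes and no GC box, Usp32 holds 7 GC boxes, and Ube2a holds 1 CCAAT box and 3 GC boxes. None of the 5 windows holds the response element. Over all 33469 promoters of the table the GC box was found in 30.5%, the CCAAT box in 34% and the response element in 1.59%. Over the 66 members these shares were 69.7%, 25.8% and 1.52%. The 33469 promoters were not limited to genes read on the arrays, so the 2 sets are not matched. The GC box was found in 20 of 33 members that were higher and in 21 of 26 that were lower in round spermatids, and the CCAAT box in 10 and 7. These matches describe the letters of the windows.

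A member can be read by several probe sets, and 41 of the 82 were. For 37 members that passed the threshold between cell types, 61 further probe sets were tested: 31 passed in the same direction, 19 passed in the opposite direction and 11 did not pass. The second probe sets of Ube2a (0.88), Ube2n (0.80), Ube2g2 (1.07), Otud4 (0.98) and Usp11 (1.03) were all higher in round spermatids, with smaller differences than the brightest one. Usp32 rests on 1 probe set, since the other one gave -0.17 (adjusted p = 0.179). Among the 13 members with an opposite call, Ube2b is the plainest: 1386923_at gave 1.1 and 1375642_at gave -1.30. Averaged over all its probe sets Ube2b differed by -0.07. Usp9x likewise had 1.27 for its brightest probe set and -1.19 for 1372121_at, with -0.04 for the mean of the gene. The other 11 are Ube2k, Ube2z, Usp2, Usp8, Usp20, Usp34, Usp38, Usp40, Usp42, Usp48 and Usp49.

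**Figure D2:**
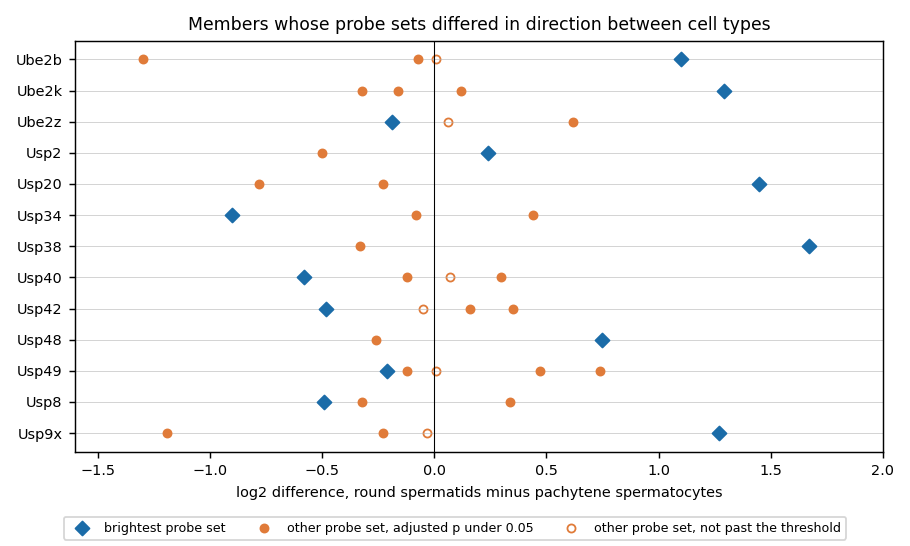
Log2 difference between cell types (round spermatids minus pachytene spermatocytes, horizontal axis) of every probe set of the 13 members with a called probe set opposite in sign to the brightest one. Diamonds are the brightest probe sets, circles the others, filled where the adjusted p was under 0.05. Ube2b spans -1.30 to 1.1 and Usp9x -1.19 to 1.27.

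The second comparison was age in pachytene spermatocytes, with 6 aged and 6 young rats. Conjugating enzymes were lower in aged rats in 11 of 29 cases and higher in 5, and deubiquitinases were lower in 16 of 53 and higher in 8. Of all genes 44.6% passed, 19% as lower and 25.5% as higher in aged rats, so the members held more lower calls (37.9% of conjugating enzymes, 30.2% of deubiquitinases) and fewer higher calls (17.2% and 15.1%) than genes in general. Median changes were -0.02 for the conjugating enzymes, -0.05 for the deubiquitinases and 0.05 for all genes. The split depends on the scaling: the median of all genes was 0.13 with median centring, -0.25 on the deposited scale and -0.13 under centring on hybridization controls. With median centring, 12 conjugating enzymes were higher and 6 lower, and 20 deubiquitinases higher and 13 lower (37.8% and 16.8% of all genes). On the deposited scale the counts were 3 and 15, and 1 and 33 (6.7% and 55.8% of all genes). Under hybridization controls they were 7 and 11, and 4 and 21 (11.1% and 29.3% of all genes).

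Without young rats 1, 10 and 11 the counts were 3 higher and 6 lower for the conjugating enzymes and 5 higher and 12 lower for the deubiquitinases, while 30.2% of all genes passed. In all 27 members that were lower in aged pachytene spermatocytes, the highest young array was 1 of these 3 rats. In 22 of the 27 these rats were the 3 highest. In all 13 members that were higher, the most extreme young array was likewise 1 of these rats. The same was not counted over all genes, so it is not shown to be particular to the members. Spermatid markers moved with the same rats. The mean level of 9 round spermatid markers, relative to all genes on the array, was 2.46 to 2.89 in aged pachytene fractions and 2.68 to 4.00 in young ones, and 5 of the 9 were lower in aged rats with none higher. For 12 late spermatid markers the mean was 4.63 to 5.18 in aged fractions and 5.06 to 6.11 in young ones, with 11 of 12 lower. Sertoli markers ran from 1.09 to 1.46 in aged fractions and from 1.89 to 2.55 in young ones. Of 7 spermatogonia markers 3 were lower in aged fractions and none higher, with means of -1.62 to -1.45 in aged fractions and -1.28 to -0.90 in young ones. The part of these other cells in the members' changes was not tested.

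Across the conjugating enzymes the falls were largest in Ube2g2, Ube2d1, Ube2n and Ube2a. Ube2g2 read 9.93, 10.13 and 10.57 in aged rats and 10.45, 11.06 and 12.44 in young rats (lowest, median and highest of 6, as in the sentences on age that follow). The groups overlapped at 1 edge only, and the change was -1.03 ± 0.31 (2.04-fold lower, adjusted p = 0.0199), with -0.34 and an adjusted p of 0.0575 without the 3 rats. The second probe set of Ube2g2 did not pass (-0.25, adjusted p = 0.115). Ube2n read 10.52, 10.60 and 11.20 in aged rats against 11.05, 11.58 and 12.86 in young rats. Its highest aged array, that of rat 2, passed the lowest young array, and it fell by 1.0 on the log2 scale (-1.0 ± 0.28, adjusted p = 0.0137; -0.41 and 0.0383 without the 3 rats).

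Ube2a read 9.08, 9.37 and 9.94 in aged pachytene spermatocytes and 9.54, 10.28 and 11.20 in young ones. Young rats 1, 10 and 11 held its highest values, and the change of -0.94 ± 0.26 (adjusted p = 0.0145) was -0.41 with an adjusted p of 0.101 without them. Its second probe set gave -0.90 ± 0.15. Ube2d1 read 5.57, 6.21 and 6.36 in aged rats and 6.61, 6.90 and 7.78 in young rats, all dim. No aged array reached a young one; the change was -1.01 ± 0.20 (adjusted p = 0.00263), and -0.73 without the 3 rats (adjusted p = 0.00787). Ube2b fell by 0.60 on the log2 scale, with every aged array below every young one (-0.60 ± 0.16; -0.25 without the 3 rats, adjusted p = 0.0185), but none of its 3 other probe sets passed.

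Of the other members of the list for degradation at the endoplasmic reticulum, Ube2k changed by -0.73 ± 0.18, Ube2j1 by -0.65 ± 0.18, Ube2g1 by -0.28 ± 0.08 and Ube2j2 by 0.28 ± 0.06, so 4 of the list's 5 members were lower in aged pachytene spermatocytes and 1 was higher. Ube2h fell by 0.78 ± 0.24 as well, but neither of its other probe sets passed (-0.24 and 0.11). Without the 3 rats Ube2k (-0.33), Ube2j1 (-0.26) and Ube2j2 (0.19) passed, and Ube2g1 (-0.21) and Ube2h (-0.27) did not.

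Conjugating enzymes that rose in aged pachytene spermatocytes moved less. Ube2o read 11.28, 11.31 and 11.36 in aged rats and 10.41, 10.91 and 11.12 in young rats. The aged arrays lay close together and above every young array, and the change was 0.46 ± 0.11 (adjusted p = 0.00598), or 0.24 without the 3 rats (adjusted p = 0.00299). Ube2t read 12.29, 12.40 and 12.45 against 11.24, 12.07 and 12.37, with overlap; its change of 0.43 ± 0.16 (adjusted p = 0.0486) was 0.10 without the 3 rats (adjusted p = 0.229). Ube2f rose by 0.22 ± 0.06 and Ube2l3, the enzyme for HECT and RBR ligases, by 0.15 ± 0.05, with no overlap in either, but neither passed without the 3 rats (0.12 and 0.09). Ube2c (-0.02), Ube2s (0.09) and Ube2d2 (-0.04) did not pass, although without the 3 rats Ube2c was called as higher (0.26).

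Among deubiquitinases in pachytene spermatocytes Otud4 had the largest change with age. It read 9.65, 9.83 and 10.39 in aged rats and 10.24, 11.06 and 12.34 in young rats. Only aged rat 2 reached into the young range, and the change was -1.27 ± 0.32 (2.41-fold lower, adjusted p = 0.00933), or -0.55 without the 3 rats (adjusted p = 0.0156). Usp25, which acts in degradation at the endoplasmic reticulum and in immune signalling, read 7.38, 7.67 and 8.05 in aged rats and 8.39, 8.62 and 9.48 in young rats. All its aged arrays were below all young ones, and its change of -1.07 ± 0.17 (adjusted p = 0.000911) was -0.83 without the 3 rats (adjusted p = 0.000908). Its dimmer second probe set did not pass (-0.12).

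Usp12 read 10.11, 10.16 and 10.69 in aged rats and 10.49, 11.21 and 12.40 in young rats, and Usp7 read 11.04, 11.24 and 11.55 in aged rats and 11.56, 12.06 and 12.94 in young rats. The groups of Usp12 overlapped and those of Usp7 were just separate. Usp12 changed by -1.01 ± 0.29 (-0.36 without the 3 rats, adjusted p = 0.0489) and Usp7 by -0.90 ± 0.21 (-0.44, adjusted p = 0.00885). All 3 further probe sets of Usp7 were lower as well, at -0.59, -0.34 and -0.21. The histone deubiquitinase Usp3 (-0.68 ± 0.10) had the smallest p-value of all members here, and Usp33 (-0.71 ± 0.14) and Usp36 (-0.42 ± 0.09) were lower too; these 3 had no overlap between ages and stayed past the threshold without the 3 rats (-0.53, -0.48 and -0.33).

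Higher in aged pachytene spermatocytes were Usp48, which cuts ubiquitin from histone H2A, and Usp6nl, which shares the symbol but is a GTPase-activating protein for Rab proteins. Usp48 read 10.86, 11.01 and 11.19 in aged rats and 10, 10.54 and 10.78 in young rats. Its groups were separate, and the change of 0.53 ± 0.12 was 0.29 without the 3 rats (adjusted p = 0.0111). Its other probe set did not pass (-0.18). Usp6nl rose by 0.53 ± 0.11 (0.32 without the 3 rats) and Usp54 by 0.38 ± 0.09 (0.20 without them). Usp49 rose by 0.29 ± 0.08 (0.24, adjusted p = 0.0512, without the 3 rats), but turned to -0.12 on the deposited scale and -0.00 under hybridization controls. The small hydrolases Uchl1 (-0.38, adjusted p = 0.115) and Uchl3 (0.24, 0.0797), the proteasome members Usp14 (-0.05) and Uchl5 (-0.02), and Usp1 (0.02), Usp2 (-0.03), Usp8 (0.21) and Usp44 (-0.44) did not pass.

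**Figure D3:**
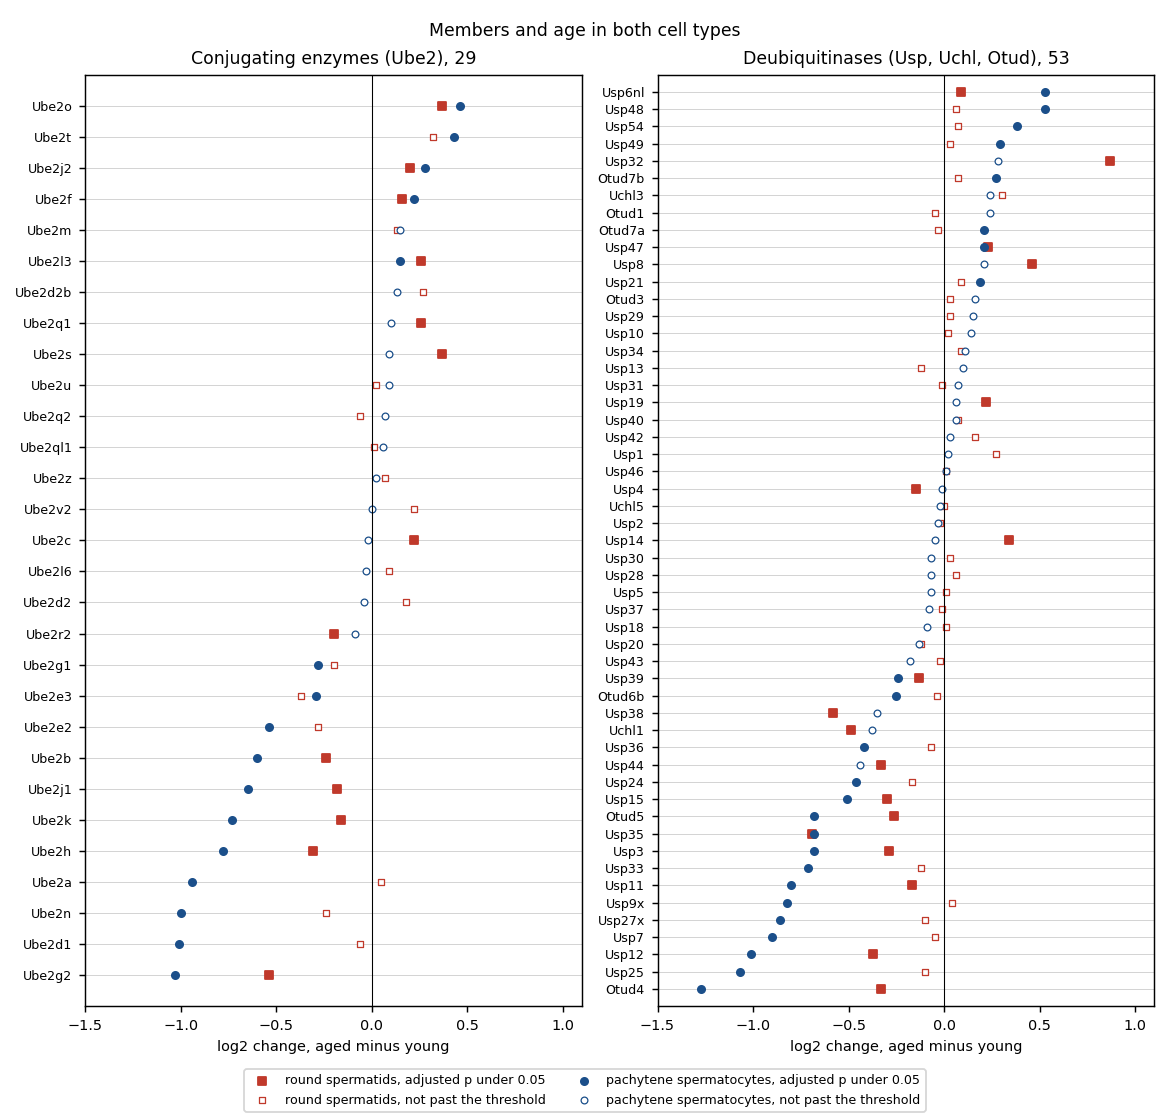
Log2 change with age (aged minus young) of each of the 82 members in round spermatids (squares) and pachytene spermatocytes (circles), sorted by the change in pachytene spermatocytes. Filled symbols passed an adjusted p of 0.05. Most of the largest falls are those of pachytene spermatocytes, down to -1.27 in Otud4, and the largest rise is that of Usp32 in round spermatids at 0.87. Each cell type was normalized on its own and without the offset, so the sizes are not on a common scale.

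The third comparison was age in round spermatids, again with 6 aged and 6 young rats. Here 7 conjugating enzymes were higher and 6 lower in aged rats, of 29, and 6 deubiquitinases were higher and 12 lower, of 53. Of all genes 24.9% passed, 12.5% as higher and 12.4% as lower. The shares among conjugating enzymes were 24.1% higher and 20.7% lower, and among deubiquitinases 11.3% higher and 22.6% lower. Brighter genes were called more often: of 6051 genes above the median level in both cell types, 1469 were higher and 1032 lower. Conjugating enzymes above it numbered 26, with 7 higher and 6 lower, and deubiquitinases 38, with 5 higher and 11 lower. Median changes were 0.05, -0.01 and 0.00 for conjugating enzymes, deubiquitinases and all genes. The median of all genes was 0.01 with median centring, 0.15 on the deposited scale and 0.18 under centring on hybridization controls. With median centring, 3 conjugating enzymes were higher and 6 lower, and 3 deubiquitinases higher and 8 lower (7.74% and 8.53% of all genes). On the deposited scale the counts were 15 and 2, and 26 and 6 (50.7% and 3.69% of all genes). Under hybridization controls they were 15 and 1, and 22 and 3 (33.7% and 2.34% of all genes). Leaving out young rats 1, 10 and 11 gave 3 higher and 1 lower conjugating enzymes and 2 higher and 4 lower deubiquitinases, with 8.32% of all genes called. Sertoli markers ran from -0.83 to -0.49 in aged round spermatid fractions and from -0.42 to 0.05 in young ones, relative to all genes, and 3 of 8 pachytene markers were higher in aged fractions with none lower. Lower in aged round spermatid fractions, with none higher, were 3 of 9 round spermatid, 3 of 12 late spermatid and 2 of 7 spermatogonia markers. Late spermatid markers averaged 5.90 to 5.97 in aged fractions and 5.97 to 6.07 in young ones, and spermatogonia markers -0.68 to -0.62 in aged fractions and -0.58 to -0.35 in young ones. The part of all these markers in the changes was not tested.

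Usp32 stood out in round spermatids. It read 8.64, 8.84 and 9.33 in aged rats and 7.77, 8.0 and 8.28 in young rats. All aged arrays were above all young ones, and the rise was 0.87 ± 0.12, or 1.83-fold (adjusted p = 0.00178), with 0.73 when the 3 young rats were left out (adjusted p = 0.0173). The second Usp32 probe set did not pass (0.05). The endosomal Usp8 read 12.43, 12.57 and 12.69 in aged rats and 11.59, 12.11 and 12.41 in young rats, without overlap, and rose by 0.46 ± 0.11 (0.28 without the 3 rats, adjusted p = 0.0372). The proteasome deubiquitinase Usp14 rose by 0.34 ± 0.08, and Usp47 by 0.23 ± 0.06.

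Falls among round spermatid deubiquitinases were led by Usp35 and Usp38. Usp35 read 9.66, 9.91 and 10.07 in aged rats and 10.11, 10.48 and 11.02 in young rats, a change of -0.69 ± 0.13. Usp38 read 9.40, 9.56 and 9.67 against 9.86, 10.06 and 10.55, a change of -0.58 ± 0.10. Neither had overlap between ages, and both passed without the 3 rats (-0.48 and -0.43). Uchl1 (-0.49 ± 0.12), Usp12 (-0.37 ± 0.10) and Usp44 (-0.33 ± 0.08) were lower with some overlap, and Otud4 (-0.33 ± 0.06) without any. The second probe set of Otud4 did not pass (-0.04, adjusted p = 0.661). Without the 3 rats Usp44 (-0.22) and Otud4 (-0.24) passed, and Uchl1 (-0.35), Usp12 (-0.27), Usp14 (0.20) and Usp47 (0.12) did not.

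The conjugating enzyme with the largest change in round spermatids was Ube2g2, which read 12.16, 12.30 and 12.54 in aged rats and 12.58, 12.84 and 13.38 in young rats, with separate groups. It fell by 0.54 on the log2 scale (-0.54 ± 0.12, adjusted p = 0.00811; -0.38 and 0.0417 without the 3 rats), and its second probe set by 0.38 (-0.38 ± 0.08). Ube2h (-0.31 ± 0.07), Ube2b (-0.24 ± 0.05) and Ube2r2 (-0.20 ± 0.06), a Cdc34-like enzyme of cullin ligases, were lower as well. However, Ube2r2 turned to 0.02 on the deposited scale and 0.06 under hybridization controls, and 1375642_at of Ube2b was higher (0.26 ± 0.07). Neither other probe set of Ube2h passed (0.03 and 0.14).

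Both anaphase-promoting complex enzymes were higher in aged round spermatids. Ube2c read 12.16, 12.26 and 12.34 in aged rats and 11.93, 12.03 and 12.12 in young rats, with no overlap (0.22 ± 0.04, adjusted p = 0.0031). Ube2s rose by 0.37 ± 0.09, with overlap, and its second probe set by 0.27 ± 0.06. Ube2o rose by 0.37 ± 0.06, Ube2l3 and Ube2q1 by 0.26 each, Ube2j2 by 0.20 ± 0.03 and Ube2f by 0.16 ± 0.03. Without the 3 rats Ube2c (0.17), Ube2o (0.27) and Ube2j2 (0.16) passed. Left out of the calls then were Ube2s (0.24), Ube2l3 (0.17), Ube2q1 (0.20) and Ube2f (0.14), and among the lower enzymes Ube2h (-0.25), Ube2b (-0.16) and Ube2r2 (-0.13). Ube2n (-0.24, adjusted p = 0.0693), Ube2t (0.32, 0.0719), Ube2a (0.05) and Ube2d2 (0.18) did not pass, nor did Uchl3 (0.30), Uchl5 (0.00), Usp1 (0.27), Usp2 (-0.02), Usp7 (-0.05) or Usp9x (0.04).

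**Figure D4:**
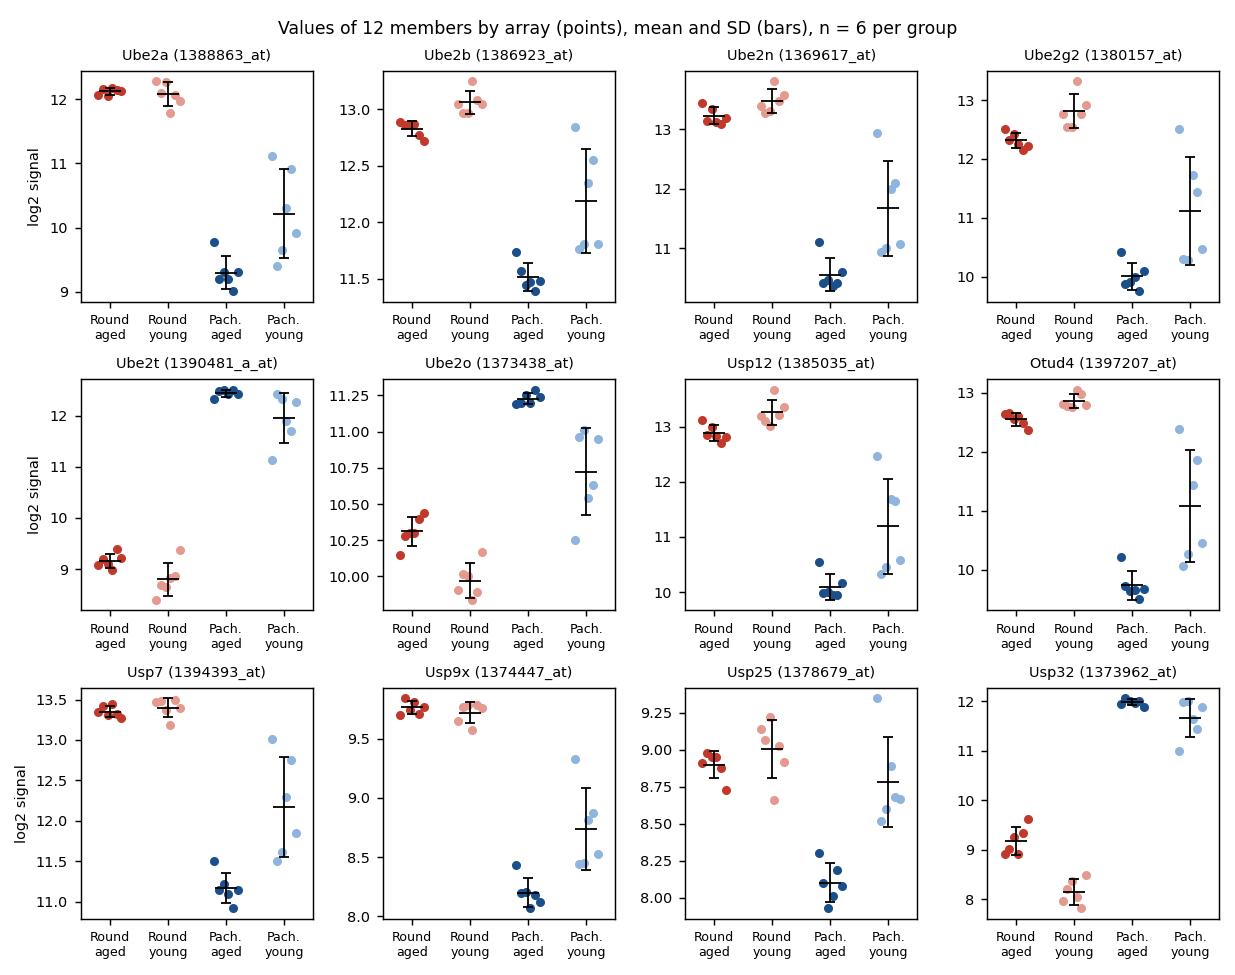
Log2 signals of 12 members on the scale used across cell types, 1 point per array, with group means and SDs (bars, n = 6) for aged and young round spermatids and aged and young pachytene spermatocytes. Young pachytene arrays have the largest SD of the 4 groups in all 12 panels. Aged arrays of Ube2a lie at 9.01 to 9.77 in pachytene spermatocytes and at 12.05 to 12.18 in round spermatids.

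The 2 age comparisons use different arrays of the same 12 rats, so their calls are set side by side but are not independent. Of 27 members lower in aged pachytene spermatocytes and 18 lower in aged round spermatids, 13 were lower in both, which is 48.1% of the first list and 72.2% of the second. They include the conjugating enzymes Ube2b, Ube2g2, Ube2h, Ube2j1 and Ube2k and the deubiquitinases Otud4, Usp11, Usp12 and Usp35. Higher in both were 6 of 13 in each list (46.2%): Ube2f, Ube2j2, Ube2l3, Ube2o, Usp47 and Usp6nl. No member was called with opposite signs. For members called with age in pachytene spermatocytes, 36 further probe sets were tested: 20 passed in the same direction and 16 did not pass. For those called in round spermatids 23 were tested: 5 passed in the same direction, 1 of Ube2b in the opposite direction, and 17 did not pass. Over all genes, those lower in both were 34.5% of the pachytene list and 53.1% of the round spermatid list, and those higher in both 32.2% and 65.9%. Without young rats 1, 10 and 11, only Otud4 was lower in both (5.56% of 18 and 20% of 5 members; 9.7% and 33.9% over all genes), and Ube2c, Ube2j2 and Ube2o were higher in both (37.5% of 8 and 60% of 5; 15.9% and 59.2%). None of the 5 conjugating enzymes named as lower in both was then called in both. With all rats, the second probe set of Otud4 was lower in aged pachytene spermatocytes (-0.61) but did not pass in round spermatids (-0.04).

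Whether an age change differed between the cell types was tested directly, as the age change in round spermatids minus that in pachytene spermatocytes. Of the members 8 passed, 2 conjugating enzymes as higher, 5 deubiquitinases as higher and 1 deubiquitinase as lower, against 16.2% of all genes (7.36% higher, 8.81% lower). On the deposited scale 20 conjugating enzymes and 40 deubiquitinases were called, all as higher, along with 76.3% of all genes, so this count rests on the scaling. Centring on hybridization controls gave 12 and 24, again all higher, with 32.4% of all genes called.

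On the cross-cell-type scale Ube2a averaged 12.12 ± 0.06 in aged and 12.07 ± 0.19 in young round spermatids, and 9.30 ± 0.26 in aged and 10.21 ± 0.69 in young pachytene spermatocytes (SD, n = 6 each). The age change differed by 0.96 ± 0.29 (SE, adjusted p = 0.0338), and its 2 round spermatid means lay closer together than its 2 pachytene means. Usp7 averaged 13.35 ± 0.07 in aged and 13.40 ± 0.11 in young round spermatids, and 11.17 ± 0.19 in aged and 12.17 ± 0.62 in young pachytene spermatocytes, a difference of 0.95 ± 0.26 (adjusted p = 0.0175). The age changes of Usp9x and Usp25 each differed by 0.58 ± 0.15. The chain-building Ube2k was lower in aged rats in both cell types, and the 2 changes differed by 0.63 ± 0.21.

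Usp32 and Usp14 differed through a rise in round spermatids. Usp32 averaged 9.18 ± 0.28 in aged and 8.15 ± 0.25 in young round spermatids, and 11.97 ± 0.06 in aged and 11.66 ± 0.39 in young pachytene spermatocytes (0.72 ± 0.21). Usp14 averaged 11.32 ± 0.09 in aged and 11.02 ± 0.17 in young round spermatids and 11.10 ± 0.07 in aged and 11.16 ± 0.04 in young pachytene spermatocytes (0.36 ± 0.08, adjusted p = 0.00783). Usp48 was the member with the opposite sign (-0.52 ± 0.14), with means of 11.38 and 11.33 in aged and young round spermatids and 10.88 and 10.32 in aged and young pachytene spermatocytes. For 7 of these 8 members 13 further probe sets were tested: 3 passed in the same direction and 10 did not pass. The 3 belong to Ube2a (0.47) and Usp9x (0.49 and 0.39), and no other probe set of Usp7, Usp25, Usp32, Usp48 or Ube2k passed. Without young rats 1, 10 and 11 Usp32 (0.83), Usp7 (0.42), Usp9x (0.27) and Usp48 (-0.29) still passed, and Ube2a (0.38), Ube2k (0.24), Usp25 (0.32) and Usp14 (0.21) did not.

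Members on the X chromosome are Ube2a, Otud5, Usp9x, Usp11 and Usp27x. The X chromosome is transcriptionally silenced in mammalian pachytene spermatocytes, in a domain marked by ubiquitin on histone H2A. All 5 were lower in aged pachytene spermatocytes, by -0.68 to -0.94, and Otud5 and Usp11 were lower in aged round spermatids (-0.26 and -0.17), where neither passed without young rats 1, 10 and 11 (-0.16 and -0.12). Among the 444 genes placed on this chromosome 237 were lower and 14 higher in aged pachytene spermatocytes, and 73 lower and 8 higher in aged round spermatids, the direction of all 5 members in pachytene spermatocytes. Each of the 4 probe sets of Usp9x was lower in aged pachytene spermatocytes (-0.82, -1.0, -0.95 and -0.31). Without the 3 rats, Otud5 (-0.32), Usp9x (-0.46), Usp11 (-0.31) and Usp27x (-0.55) passed, and Ube2a (-0.41) did not. Between cell types, 4 of the 5 were higher in round spermatids by their brightest probe sets, although another called probe set of Usp9x was lower. Usp27x was lower (-0.59), at signals near those of the absent control.

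The 2 classes can be set side by side through their mean levels. The mean level of the conjugating enzymes, relative to all genes on the array, was 2.44 to 2.57 in aged and 2.55 to 2.81 in young pachytene spermatocytes, and 2.29 to 2.31 in aged and 2.26 to 2.32 in young round spermatids. For the deubiquitinases it was 1.09 to 1.17 in aged and 1.18 to 1.39 in young pachytene spermatocytes, and 1.0 to 1.03 in aged and 1.0 to 1.07 in young round spermatids. Those ranges were normalized within each cell type, so they do not compare the cell types. On the scale used across cell types, conjugating enzymes had 1.97 to 2.1 in aged and 2.07 to 2.33 in young pachytene spermatocytes. In aged and young round spermatids they had 2.26 to 2.28 and 2.23 to 2.29. Deubiquitinases had 0.75 to 0.81 in aged and 0.81 to 1.01 in young pachytene spermatocytes. Their aged and young round spermatid ranges were 1.03 to 1.06 and 1.02 to 1.09. Within pachytene spermatocytes the highest young arrays were those of rats 1, 10 and 11 in both classes. No p-value is given for a class, because the classes were named with results of these data known. The spread of the conjugating enzymes between cell types was wide, with the middle range of changes (25% to 75%) at -0.37 to 1.29, against -0.35 to 0.75 for deubiquitinases and -0.38 to 0.40 for all genes.

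**Figure D5:**
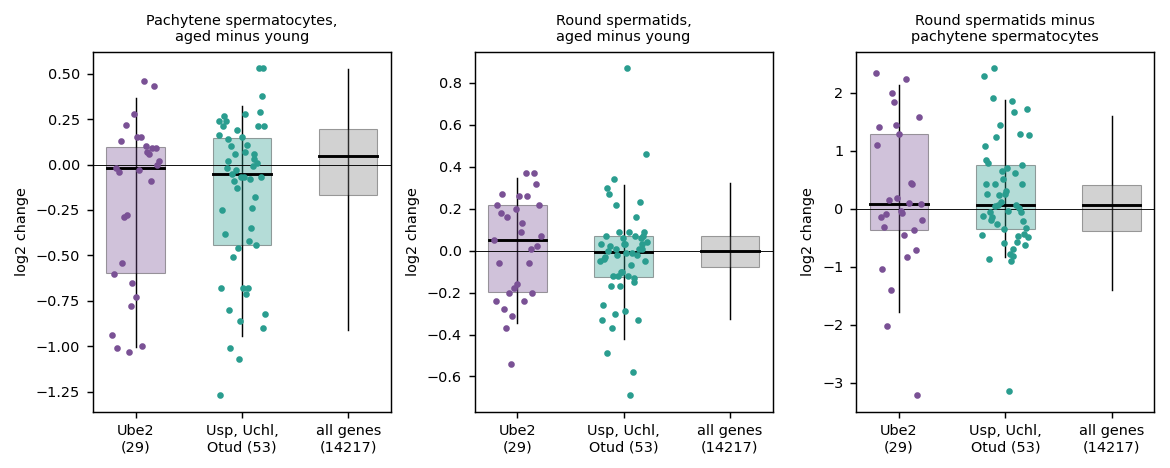
Log2 changes of the conjugating enzymes (29), the deubiquitinases (53) and all genes (14217) for age in pachytene spermatocytes, age in round spermatids (both aged minus young) and cell type (round spermatids minus pachytene spermatocytes). Boxes span 25% to 75%, thin lines 5% to 95%, thick lines are medians and points are members. Class medians lie between -0.05 and 0.08 in all 3 panels.

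Genes on either side of the 2 classes in the pathway give the setting. The shares of all genes given above (25.5% higher and 19% lower with age in pachytene spermatocytes, 12.5% and 12.4% with age in round spermatids, 49.2% and 39.1% between cell types) are the background here too. Of 7 measured E1 enzymes and subunits, 3 were lower and 1 higher in aged pachytene spermatocytes: Uba6 (-1.0 ± 0.15) and the X-linked Uba1 (-0.79 ± 0.19), the E1 enzymes for ubiquitin, were lower, and Sae1, a subunit of the E1 for Sumo, was higher (0.47 ± 0.13). Without the 3 rats these were -0.80, -0.41 and 0.17, all past the threshold. In aged round spermatids the count was again 3 lower and 1 higher, with Uba1 at -0.36, Nae1, a subunit of the E1 for Nedd8, at -0.29 and Sae1 at 0.55; without the 3 rats Sae1 passed (0.41), and Uba1 (-0.20) and Nae1 (-0.20) did not. Between cell types 2 were higher and 5 lower in round spermatids, among them Uba3 (-2.02), the other subunit of the Nedd8 E1, and Uba6 (-1.73). Of 65 E3 ligases and subunits, 19 were higher and 20 lower in aged pachytene spermatocytes, with the X-linked Pja1 at -1.38 (-1.24 without the 3 rats), 13 were higher and 13 lower in aged round spermatids, and 31 were higher and 27 lower in round spermatids against pachytene spermatocytes. Among those lower in round spermatids were the cullin Cul4a (-3.33) and Hace1 (-3.56). Of 20 deubiquitinases of other families, 8 were higher and 5 lower with age in pachytene spermatocytes, 6 and 5 with age in round spermatids, and 12 and 7 between cell types, where Psmd14, the proteasome's own deubiquitinase, was lower in round spermatids (-0.96).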

How the data were processed

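The authors deposited log2 signals for 31099 probe sets on 24 arrays, per the file headers and values. No source used here names the program that summarised probes into signals. Cells were separated by a density gradient after enzymatic digestion, per the labels' protocols. The 57 control probe sets were left out, which left 31042 tested, 20826 of them with 1 gene symbol.

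For age within a cell type, the 12 arrays of that cell type were quantile normalized. For cell types, a linear offset of 90.3 was added to the pachytene values, fitted over 45 control probe sets, and all 24 arrays were quantile normalized; the control difference between cell types was 0.61 ± 0.77 before and -0.03 ± 0.17 after it (SD). Models were fitted with limma 3.58.1 in R 4.3.3 (lmFit, eBayes), with Benjamini-Hochberg adjustment over all probe sets and a threshold of 0.05, and were tested on simulated data. All adjusted p-values in the text come from these fits. The age and cell-type comparisons share arrays, so their values are only set side by side.

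The members and lists were chosen with earlier results of these data known. Named were up to 4 members with the largest changes past the threshold in each comparison, class and direction, up to 2 for the difference of the age change, and 16 members known for a role in germ cells, cell division or the proteasome. Members named beyond these complete a role list or were chosen after their values were seen. Promoters come from RefSeq for GRCr8, which gives positions of members only; proteins were not used here. Replicates are separate rats. Rat numbers link the fractions: the correlation of deviations ran from -0.08 to 0.38 over rats, and 6 of 12 rats matched their own other fraction best, so the rat was used as a block only as an alternative. Other alternatives were other scalings, no offset, leaving out dim probe sets, gene means, other variance settings and leaving out young rats 1, 10 and 11. The number of arrays limits the precision.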

Additional observations from a re-analysis of the deposited data

Results flagged for a closer look

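In 9 of 176 groups of 6 arrays, over 44 members and 4 groups each, the highest or lowest array lay far from the other 5; chance flags about 1 in 20 groups. In aged pachytene spermatocytes, rat 2 was high for 3 members: Otud4 read 10.39 (others 9.65 to 9.90), Ube2n 11.20 (10.52 to 10.74) and Ube2h 8.79 (8.34 to 8.45). Ube2g1 read 10.55 in aged rat 9 (others 10.85 to 10.99) and Uchl5 13.01 in aged rat 10 (13.08 to 13.12). In young pachytene spermatocytes, rat 1 was low for Usp1 at 13.53 (others 13.80 to 13.89) and for Usp49 at 6.98 (7.24 to 7.31). In round spermatids, Ube2q1 read 10.79 in aged rat 3 (others 10.90 to 10.92), and Usp48 read 11.02 in young rat 10 (11.21 to 11.28).

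For 8 of 82 members the age change differed between the cell types in the limma test of that difference (round spermatids minus pachytene spermatocytes): Ube2a 0.96, Usp7 0.95, Usp32 0.72, Ube2k 0.63, Usp9x 0.58, Usp25 0.58, Usp14 0.36 and Usp48 -0.52. Of all genes 16.2% passed this test, a larger share than among the members.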

How the results depend on the processing

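Of 921 recomputed results, 747 kept their direction and side of the threshold, 101 lost the call, 27 gained one and 46 turned in sign; the cause was not tested. Without young rats 1, 10 and 11 the age calls were 9 conjugating enzymes in pachytene spermatocytes (30.2% of all genes). In round spermatids they were 4 conjugating enzymes and 6 deubiquitinases (8.32% of all genes). The age change then differed between cell types for 1 conjugating enzyme (11.1% of all genes). A replicate block over the 3 rat numbers that aged and young rats share, which mark different animals and leave 6 of 12 arrays, gave 0 calls by limma in both classes and both cell types (0 of all genes in round spermatids, 1.49% in pachytene spermatocytes). At an unadjusted p under 0.05 it gave 2 conjugating enzymes and 10 deubiquitinases in pachytene spermatocytes, and 5 and 2 in round spermatids. The replicate block by rat, which is the pairing of fractions from 1 animal, gave 25 and 48 members between cell types and changed the call of no named member. Age calls among round spermatid deubiquitinases numbered 11 with median centring and 32 with no normalization (16.3% and 54.3% of all genes). Differences of age changes numbered 20, for conjugating enzymes, with no normalization and 12 with hybridization controls, and for deubiquitinases 14 with median centring, 40 with no normalization and 24 with hybridization controls (31%, 76.3% and 32.4% of all genes).

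Signs turned as follows for age in pachytene spermatocytes: with median centring Ube2c 0.22, Ube2d2 0.27, Uchl5 0.33, Usp14 0.21 and Usp2 0.34; with hybridization controls Ube2d2 0.01, Uchl5 0.07, Usp2 0.08 and Usp49 -0.00; with no normalization Usp49 -0.12; without the 3 rats Ube2c 0.26, Uchl5 0.02, Usp1 -0.03, Usp2 0.01 and Usp44 0.00; with the shared-number block Ube2c 0.25, Uchl5 0.02 and Usp1 -0.04; with gene means Usp2 0.08; without young rat 1, chosen after seeing the data, Ube2c 0.10 and Usp1 -0.03. For age in round spermatids they turned with no normalization for Ube2r2 0.02, Uchl5 0.08 and Usp7 0.01, with hybridization controls for Ube2r2 0.06, Uchl5 0.12, Usp2 0.02 and Usp7 0.05, without the 3 rats for Uchl5 0.00 and Usp9x -0.01, with the shared-number block for Uchl5 0.02 and Usp7 0.00, with gene means for Usp2 0.01 and Usp9x -0.07, and without young rat 10, chosen after seeing the data, for Ube2a -0.02 and Uchl5 0.00. Between cell types they turned with gene means for Ube2b -0.07, Usp2 -0.13 and Usp9x -0.04, with median centring for Uchl5 0.13 and Usp14 -0.20, with no normalization for Uchl5 0.07 and Usp14 -0.26, with hybridization controls for Uchl5 0.02 and Usp14 -0.31, and in young rats alone for Usp14 -0.14. Differences of dim members between cell types rest on the offset and on array background, and folds near background are compressed.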
